A study of Drosophila melanogaster with 18 samples.

Results

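The comparison described here is late adult life in male fruit flies (Drosophila melanogaster): heads of 45-day-old males against heads of 30-day-old males. It used 3 libraries of each age, 6 of the 18 libraries in the series, and every gene of the male table with a normalized count of at least 10 in at least 3 of the 12 male libraries, which left 8921 of 10884 genes. Both ages were wild-type males of the w1118 control line kept at 25 °C and 60% humidity, with fresh vials every other day, so no mutation or drug separates them. The 3 libraries each of males aged 15 and 3 days entered the same model, which gave it a better estimate of the spread. RNA was polyadenylated RNA of whole heads, a mixture of brain, eye, fat body, muscle, cuticle and blood cells, so fewer cells of a type and less RNA per cell cannot be told apart. The labels do not say whether the 3 libraries of an age came from separate cultures, so p-values here measure the spread between these libraries and no more.

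Insects answer bacteria and fungi through the Imd and Toll pathways: peptidoglycan recognition proteins (PGRPs) bind fragments of bacterial wall, NF-kB factors such as Relish are released, and fat body and other cells secrete antimicrobial peptides. The compound eye supplies much of the RNA of a fly head. Its photoreceptors turn light into current through rhodopsin, a G protein, phospholipase C and TRP channels. The circadian clock is a feedback loop in which Clk and cyc switch on per, tim and vri. The products of per and tim shut this transcription down, so the RNA of per, tim and vri swings with the time of day.

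The libraries held between 2999956 and 4102364 reads over all genes, so 1 read is worth about 1 normalized count. Markers of neurons, photoreceptors, glia, muscle, fat body and blood cells were present at both ages, and so was the male dosage compensation RNA roX1. The library of day 45 labelled replicate 3 stood apart from its group. Between it and replicates 1 and 2 the counts differed by a chi-square of 8.83 and 7.07 per gene, against 3.03 between replicates 1 and 2. No pair of libraries of one age differed by less than sampling noise. Transcripts of the male reproductive tract, 17 genes that a clean head should lack, summed to 246, 34.4 and 15.2 normalized counts in day 45 replicates 1, 2 and 3, against 19.9, 10.03 and 5.25 in day 30 replicates 1, 2 and 3. None of the 17 passed the filter. The sum was highest in day 45 replicate 1, and the part of such RNA in any result was not tested.

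Few genes changed between these ages. With limma on log2(normalized count + 1) and Benjamini-Hochberg adjustment over all 8921 genes, 37 genes (0.415%) passed an adjusted p of 0.05. At day 45, 25 of them were higher (0.28%) and 12 lower (0.135%). At an unadjusted p under 0.05 there were 778 genes, 8.72% of those tested. The 6 libraries separated by age without overlap for all 37, as they did for 13.9% of all genes. Of the 37, 10 rose and 5 fell at least 2-fold, and 21 have a given name beyond a CG number. The median change over all genes was 0.00 on the log2 scale. The same model called 171 genes (1.92%) between days 30 and 15, where 82 rose (0.919%) and 89 fell (0.998%), and 1193 (13.4%) between days 15 and 3. Count tests on the recovered reads called 56 genes between days 45 and 30 (edgeR, 0.628%) or 64 (DESeq2, 0.718%). The number depends strongly on single libraries: 5 genes were called without day 45 replicate 1, 28 without replicate 2 and 99 without replicate 3, and 36, 21 and 3 without day 30 replicates 1, 2 and 3. With only the libraries of days 45 and 30 in the model, 34 genes were called, among them 22 of the 37. All 37 kept their direction in each of these fits.

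**Figure D1:**
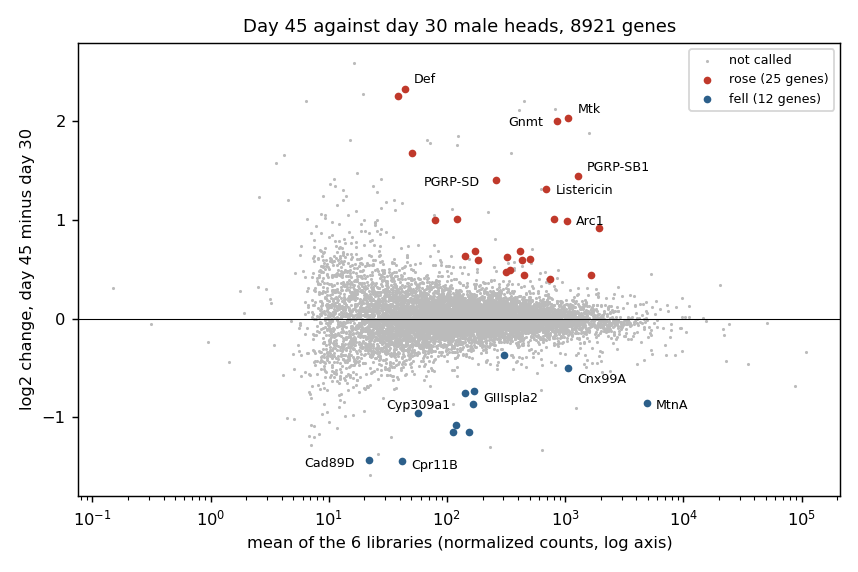
Change of each of the 8921 genes on the vertical axis (log2, day 45 minus day 30) against its mean normalized count over the 6 libraries on a logarithmic horizontal axis. The 25 genes that rose (red) lie between 0.40 and 2.33, the 12 that fell (blue) between -1.45 and -0.37, and genes that were not called are grey.

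Immune genes led the rise. The antimicrobial peptides Mtk and Def, the peptidoglycan recognition proteins PGRP-SD and PGRP-SB1, and the antibacterial peptide Listericin rose, with log2 changes of 1.32 to 2.33. Of 13 antimicrobial peptide genes tested, 2 rose and none fell, against 0.28% and 0.135% of all genes. edgeR called 5 of them and DESeq2 2. The median log2 change over the 13 was 1.88, against 0.00 over all genes, and the day 45 libraries lay above the day 30 libraries without overlap for 9, against 6.98% of all genes. The rise was not confined to this interval: the median of the 13 was 1.47 from day 15 to 30 and 0.96 from day 3 to 15. In those intervals limma called 1 and 3 of the 13 higher, against 0.919% and 5.95% of all genes. That list was drawn up with earlier results of these data known.

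Def encodes defensin, a peptide active mainly against Gram-positive bacteria (chromosome arm 2R, 10054178 to 10054576 in dm6). It had 67.2, 40.2 and 117 normalized counts in day 45 heads, against 17.9, 11.03 and 10.5 in day 30 heads. Every day 45 library was above every day 30 library, and replicate 3 was the highest. Its log2 change was 2.33 ± 0.35 (SE, limma adjusted p = 0.00875), 1.94 without replicate 3, and it missed the threshold without day 45 replicate 1 (adjusted p = 0.052) and without day 30 replicate 3 (adjusted p = 0.068). Def shares its position with magu on the other strand, and nothing in the labels says that the library kit keeps the strand, so their reads cannot be told apart where they overlap.

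Mtk encodes metchnikowin, a proline-rich peptide active against fungi and bacteria (2R, 15408846 to 15409113). It had 1626, 835 and 2746 normalized counts in day 45 heads, against 401, 526 and 258 in day 30 heads. The ages did not overlap, although the day 45 libraries differed among themselves more than 3-fold. Mtk changed by 2.03 ± 0.39 on the log2 scale (SE, limma adjusted p = 0.0324). Without day 45 replicate 1 this was 1.99 (limma adjusted p = 0.132), without day 30 replicate 3 it was 1.75 (adjusted p = 0.248), and without day 30 replicate 1 the adjusted p was 0.060. Mtk lies within Stacl on the same strand.

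PGRP-SD, a secreted sensor of bacterial wall upstream of Imd and Toll (3L, 7651180 to 7651900), had 371, 289 and 474 normalized counts in day 45 heads, against 167, 138 and 118 in day 30 heads. The lowest day 45 library stood well above the highest day 30 library. PGRP-SD changed by 1.40 ± 0.19 (log2, SE, limma adjusted p = 0.00487), and it was called under all 20 alternative settings, with log2 changes of 1.22 to 1.58. It overlaps CG7492 and CG32373. Listericin (2R, 11241745 to 11242194) had 889, 761 and 1334 normalized counts in day 45 heads, against 498, 336 and 348 in day 30 heads. Its libraries did not overlap either, and replicate 3 was again the highest. It changed by 1.32 ± 0.17 (log2, SE, limma adjusted p = 0.00475) and was called under all 20 settings, with changes of 1.08 to 1.496. PGRP-SD and Listericin were the only genes among the 37 called in every setting.

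PGRP-SB1 encodes a secreted amidase that cuts peptidoglycan (3L, 16727299 to 16727989). It had 1622, 1415 and 2652 normalized counts in day 45 heads, against 852, 646 and 547 in day 30 heads, without overlap. Its log2 change was 1.44 ± 0.23 (SE, limma adjusted p = 0.0105). Without day 30 replicate 3 this was 1.30 (limma adjusted p = 0.108).

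The other antimicrobial peptides did not pass the limma test, and their day 45 libraries spread widely. A wide spread was not particular to day 45. Over the 13 genes the SD of log2(normalized count + 1) had a median of 0.87 at day 45 and 0.40 at day 30. At days 15 and 3 it was 1.24 and 0.68, and the limma test pools the spread of all 4 ages. DptA, a diptericin, had 707, 349 and 1191 normalized counts at day 45, against 155, 155 and 123 at day 30 (log2 change 2.20 ± 0.50, SE, limma adjusted p = 0.0748). DptB, its neighbour, had 558, 345 and 1142 at day 45, against 170, 130 and 120 at day 30 (limma adjusted p = 0.0787). AttB, an attacin, had 399, 256 and 997 at day 45, against 144, 141 and 151 at day 30 (limma adjusted p = 0.0855). In each of these 3 the order of the day 45 libraries was the same: replicate 3 highest, replicate 1 next and replicate 2 lowest. On whole reads recovered from the deposited values, edgeR's quasi-likelihood test called all 3, with adjusted p of 0.0103 for DptA, 0.0165 for DptB and 0.0207 for AttB, while DESeq2 called none of them. Diptericins, attacins and cecropins exist as near copies (DptA and DptB, AttA and AttB, CecA1 and CecA2), so reads may be split between members.

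AttC had 2470, 1127 and 4141 normalized counts at day 45, against 708, 576 and 561 at day 30, again without overlap and with replicate 3 highest (limma adjusted p = 0.192). Dro, a drosocin, had 1293, 481 and 2277 at day 45, against 162, 575 and 182 at day 30. Here the ages overlapped, because day 30 replicate 2 was higher than day 45 replicate 2 (limma adjusted p = 0.134). CecA1, CecA2 and CecC did not overlap between ages and had adjusted p of 0.493, 0.616 and 0.340. AttA, Drsl4 and Drsl5 overlapped, and the Drsl pair, related to the antifungal peptide drosomycin, had log2 changes of -0.21 and -0.07. Drosomycin itself is not among the 13, so the pair does not stand for it. List members were matched by name, and 183 genes have no symbol. Among the day 45 libraries, 10 of the 13 genes were highest in replicate 3 and 11 were lowest in replicate 2, against 39.3% and 29.0% of all genes tested. The summed level of the list was 8698, 4881 and 14362 normalized counts in day 45 replicates 1, 2 and 3, against 3061, 3374 and 3027 in day 30 heads. The day 45 sums differed nearly 3-fold among themselves and all lay above day 30. The list's median log2 change was 1.45 without day 45 replicate 3 and 1.82 without replicate 1. The number of members called was 0 without day 45 replicate 1 or day 30 replicate 3, 1 without day 30 replicate 1, and 6 without day 45 replicate 2.

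**Figure D2:**
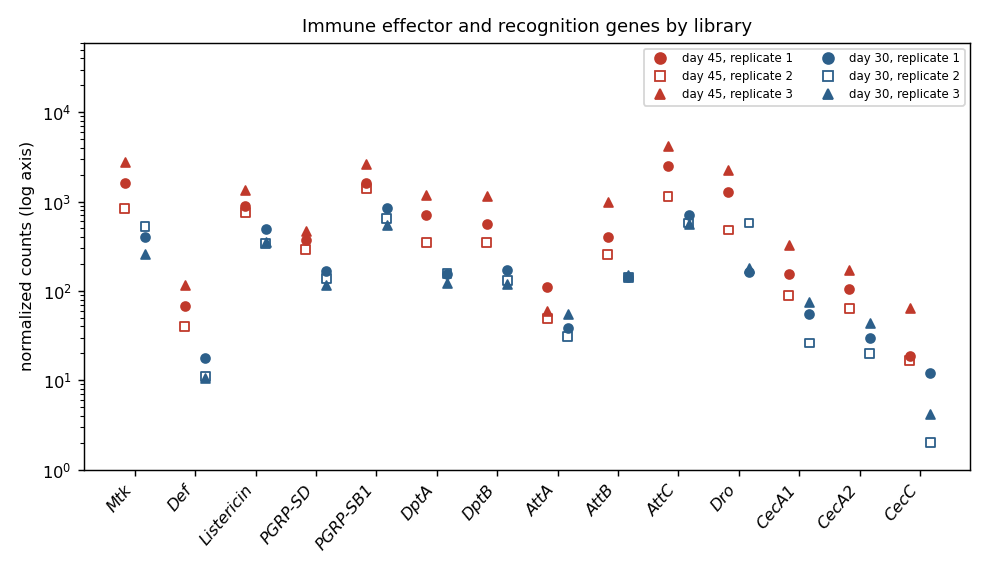
Normalized counts on a logarithmic axis of 14 immune genes in each day 45 library (red) and day 30 library (blue), with circles, open squares and triangles for replicates 1, 2 and 3. Red triangles are highest for most genes, as for Mtk at 2746, against 258 to 526 in the day 30 libraries, and the ages overlap for Dro and AttA.

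Upstream of the peptides, few genes of the Imd and Toll pathways passed the test. Of 34 tested, 2 rose (PGRP-SD and PGRP-SB1) and none fell, against 0.28% and 0.135% of all genes, with a median log2 change of 0.05. Rel, the NF-kB factor of the Imd pathway, had 742, 654 and 968 normalized counts at day 45, against 615, 545 and 528 at day 30. Its ages did not overlap, and its log2 change of 0.47 ± 0.13 (SE) missed the limma threshold (adjusted p = 0.159), as it did with edgeR (0.108), whereas DESeq2 called it (0.0405). PGRP-LB and PGRP-SC2, amidases that dampen Imd signalling by degrading peptidoglycan, had log2 changes of 0.75 and 1.80 (limma adjusted p = 0.0904 and 0.142). Both lay above day 30 without overlap. edgeR called both (adjusted p of 0.0360 and 0.0165) and DESeq2 neither (0.0732 and 0.158). The receptor PGRP-LC, the adaptor imd, the caspase Dredd and the Toll-side genes Dif, cact and spz had log2 changes between -0.03 and 0.16, with limma adjusted p of 0.669 to 0.976.

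The bomanins and related immune-induced peptides are an output of Toll. limma called none of 14 (4 at an unadjusted p under 0.05, against 8.72% of all genes), edgeR none and DESeq2 1, and the median log2 change was 0.16. The gene DESeq2 called was BomBc3 (adjusted p = 0.0228), with 705, 597 and 855 normalized counts at day 45, against 476, 562 and 515 at day 30 (log2 change 0.46 ± 0.11, SE, limma adjusted p = 0.0926). From day 15 to 30 limma called 10 of the 14 higher (median log2 change 0.60), against 0.919% of all genes. Among the day 45 libraries all 14 were highest in replicate 3, and among the day 30 libraries 13 were lowest in replicate 1. The median of the list lay on either side of 0 depending on libraries, between -0.11 without both of those libraries and 0.29 without day 45 replicate 2. Blood cell and melanization genes gave no call among 14 by limma, edgeR or DESeq2 (median log2 change 0.17). Of these 14, 11 had a change above 0 and 5 an unadjusted limma p under 0.05, against 8.72% of all genes at that p. Day 45 lay above day 30 without overlap for 5, against 6.98% of all genes. The 9 Turandot stress peptides and their JAK/STAT regulators gave no call either (median -0.02, 1 at that p).

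Beyond immunity, a pair of enzymes of the methionine cycle rose. Gnmt, glycine N-methyltransferase, uses up S-adenosylmethionine, the cell's methyl donor, and its product is broken down by Ahcy, adenosylhomocysteinase. Gnmt (3R, 12674608 to 12676084) had 1115, 964 and 2011 normalized counts in day 45 heads, against 530, 307 and 204 in day 30 heads. Its ages did not overlap, and it varied more than 2-fold within each age. Gnmt changed by 2.01 ± 0.40 on the log2 scale (SE, limma adjusted p = 0.0344), and by 1.69 (adjusted p = 0.058) without day 45 replicate 3. Without the other single libraries limma's adjusted p was 0.101 (day 45 replicate 1), 0.045 (day 45 replicate 2), 0.013, 0.134 and 0.285 (day 30 replicates 1, 2 and 3). Ahcy (X, 15450261 to 15453167) had 465, 471 and 617 normalized counts at day 45, against 352, 350.0 and 317 at day 30, without overlap. Ahcy changed by 0.60 ± 0.12 (log2, SE, limma adjusted p = 0.0442), and leaving out any single library of either age took the adjusted p above 0.05, to between 0.063 and 0.291. Gnmt was the only call among 19 amino acid breakdown genes, whose median change was -0.05.

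Arc1 encodes a Gag-like protein that packs RNA into capsids and carries it between neurons and muscle. It had 1529, 1470 and 1128 normalized counts in day 45 heads, against 669, 828 and 587 in day 30 heads. In contrast to the peptides, replicate 3 was the lowest of the day 45 libraries here, and the ages did not overlap. Arc1 changed by 0.99 ± 0.17 (log2, SE, limma adjusted p = 0.0124), with 1.12 without day 45 replicate 3 and an adjusted p of 0.088, 0.051 and 0.125 without day 45 replicate 1, day 45 replicate 2 and day 30 replicate 3. Obp56a, an odorant binding protein, had 112, 93.9 and 108 at day 45, against 65.7, 45.1 and 47.2 at day 30 (log2 change 0.99 ± 0.21, SE, limma adjusted p = 0.046). It was the only call among 27 odorant binding proteins, and it was called in 1 of the 6 fits that leave out a library of these ages, the one without day 30 replicate 1 (limma adjusted p = 0.031).

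Other named genes rose less. Mvl, a transporter of iron and manganese, had 419, 359.5 and 416 normalized counts at day 45, against 269, 278 and 301 at day 30 (log2 change 0.49 ± 0.09, SE, limma adjusted p = 0.0192). Myo31DF, an unconventional myosin, had 382, 336 and 380.4 at day 45, against 274, 284 and 237 at day 30 (log2 change 0.47 ± 0.09, SE, limma adjusted p = 0.0324). The filamin gene cher had 534, 483 and 534 at day 45, against 358, 415 and 366 at day 30 (log2 change 0.45 ± 0.09, SE, limma adjusted p = 0.0324). It overlaps several small genes. In these 3 the ages were separate and the day 45 libraries lay close together. The tetraspanin Tsp42Ed had 414, 369.6 and 378 at day 45, against 275, 259 and 221 at day 30 (log2 change 0.62 ± 0.10, SE, limma adjusted p = 0.0124). Under the 6 fits that leave out a library, Mvl was called in 2, Myo31DF and Tsp42Ed in 4 each and cher in 3, and all 4 were lost without day 45 replicate 1 (adjusted p of 0.088 to 0.197) and without day 30 replicate 3 (0.072 to 0.252).

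Among genes known only by number, CG43920 had 48.4, 46.1 and 93.2 normalized counts at day 45, against 11.9, 24.1 and 5.25 at day 30, a log2 change of 2.25 ± 0.44 (SE, limma adjusted p = 0.0324). CG4269 had 78.0, 79.6 and 75.9 at day 45, against 19.9, 30.1 and 22.0 at day 30, a log2 change of 1.68 ± 0.30 (SE, limma adjusted p = 0.0192). The day 45 libraries of CG4269 were nearly level. Its limma adjusted p was 0.101, 0.077, 0.061 and 0.145 without day 45 replicate 1, day 45 replicate 2, day 30 replicate 1 and day 30 replicate 3. CG43920 was called in 1 of the 6 fits that leave out a library, without day 30 replicate 2 (limma adjusted p = 0.015), and both genes overlap another gene on the opposite strand.

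The 12 genes that fell have varied roles. They include a pair of cuticle proteins, a metal-binding protein, a cytochrome P450, a chaperone of the endoplasmic reticulum, a secreted phospholipase and a cadherin. Cpr11B, a chitin-binding cuticle protein (X, 12553124 to 12554235), had 25.1, 28.5 and 14.1 normalized counts in day 45 heads, against 51.7, 58.2 and 74.5 in day 30 heads. The ages were well apart, with replicate 3 lowest at day 45. Its log2 change was -1.45 ± 0.23 (SE, limma adjusted p = 0.0105), and of the fits that leave out 1 library only the one without day 30 replicate 3 lost it (-1.30, adjusted p = 0.108). Cpr49Ag had 25.995, 36.9 and 55.3 at day 45, against 77.6, 68.2 and 75.6 at day 30 (log2 change -0.95 ± 0.20, SE, limma adjusted p = 0.044). It held in 1 of the 6 fits that leave out a library, the one without day 45 replicate 3 (-1.22, limma adjusted p = 0.000689). Over 22 cuticle proteins limma and DESeq2 called 2 lower and edgeR 1, and none rose, against 0.135% and 0.28% of all genes, with a median change of -0.05 and members on both sides of 0.

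Cad89D, a cadherin, had 8.07, 9.22 and 18.4 normalized counts at day 45, against 26.9, 29.1 and 40.9 at day 30. The ages did not overlap, but these levels rest on few reads. Cad89D changed by -1.43 ± 0.28 (log2, SE, limma adjusted p = 0.0344), with -1.77 without day 45 replicate 3, and the call was lost in 4 of the 6 fits that leave out a library (adjusted p of 0.095 to 0.288). CG16926, CG16898 and CG8654 fell by 1.15, 1.15 and 1.08 on the log2 scale (limma adjusted p = 0.0445, 0.0445 and 0.0499). In all 3, day 30 replicate 1 lay nearest to day 45, as for CG8654, with 87.8, 76.3 and 56.4 at day 45, against 98.5, 155 and 238 at day 30. None of the 3 was called without day 30 replicate 3 (limma adjusted p = 0.300 each), day 30 replicate 2 (0.156 to 0.183), day 45 replicate 1 (0.088 to 0.213) or day 45 replicate 2 (0.130 to 0.148).

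For 6 genes the late change was lower than the change from day 15 to day 30. The model tested the difference directly, as (day 45 minus day 30) minus (day 30 minus day 15). It called 6 genes of 8921 (0.0673%), all lower, and at an unadjusted p under 0.05 there were 661, 7.41%. No gene was called higher by limma, edgeR or DESeq2. The 2 intervals share the day 30 libraries, so a gene high in those libraries alone gives a difference of this sign. Of the 6 genes, MtnA, Cyp309a1, Cnx99A and GIIIspla2 are also among the 12 that fell, and MtnD and Hsp26 missed that threshold (limma adjusted p = 0.0848 each).

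MtnA and MtnD are metallothioneins, small cysteine-rich proteins that bind copper and zinc. MtnA (3R, 9783407 to 9784370) had 2949, 2801 and 2474 normalized counts at day 15, 4401, 7433 and 7416 at day 30 and 3755, 3891 and 2773 at day 45. All day 30 libraries were above all libraries of the other ages, and day 30 replicate 1 was the lowest of the 3. Its log2 change was -0.86 ± 0.17 (SE, limma adjusted p = 0.0325) from day 30 to 45 and 1.19 ± 0.17 (adjusted p = 0.00393) from day 15 to 30, a difference of -2.05 ± 0.29 (adjusted p = 0.00849). The fall was not called without day 45 replicate 1, day 30 replicate 2 or day 30 replicate 3 (limma adjusted p of 0.088, 0.156 and 0.265). MtnD had 4.77, 7.33 and 3.34 at day 15, 28.9, 44.1 and 29.4 at day 30 and 9.86, 15.1 and 7.59 at day 45, on few reads. Its difference was -4.13 ± 0.64 (SE, limma adjusted p = 0.013). Between days 45 and 30 MtnA was limma's only call among 22 antioxidant and metal-binding genes, while edgeR and DESeq2 also called MtnD (adjusted p of 0.0165 and 0.0232).

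Cnx99A encodes calnexin, a lectin chaperone of the endoplasmic reticulum that the eye needs to fold rhodopsin (3R, 29315254 to 29319644). It had 835, 772 and 783 normalized counts at day 15, 1289, 1156 and 1302 at day 30 and 797, 923 and 924 at day 45. Day 30 stood apart from every other library, and days 15 and 45 overlapped. Cnx99A changed by -0.50 ± 0.08 (log2, SE, limma adjusted p = 0.0124) from day 30 to 45, a call lost without day 45 replicate 1 and day 30 replicate 3 (adjusted p of 0.088 and 0.125), and the difference from the earlier interval was -1.15 ± 0.15 (SE, adjusted p = 0.00406). It was the only call among 17 genes of protein folding in the endoplasmic reticulum, whose median change was 0.03.

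Cyp309a1, a cytochrome P450, had 130, 111 and 125 normalized counts at day 15, 178, 229 and 237 at day 30 and 108, 105 and 141 at day 45. The 3 day 30 values were again the highest. The change from day 30 to 45 was -0.86 ± 0.15 (log2, SE, limma adjusted p = 0.0124), and 4 fits lost it (without day 45 replicate 1 or 2 and day 30 replicate 2 or 3, limma adjusted p of 0.054 to 0.125). The difference between the intervals was -1.66 ± 0.25 (SE, limma adjusted p = 0.013). It was limma's and edgeR's only call among 67 cytochrome P450 genes, and DESeq2 also called Cyp313a1 (log2 change -0.31, adjusted p = 0.0060). GIIIspla2, a secreted phospholipase A2, had 166, 168 and 179 at day 15, 201, 199.5 and 233 at day 30 and 117, 137 and 126 at day 45. Here day 45 lay below day 15 as well, with no overlap. The change was -0.73 ± 0.10 (SE, limma adjusted p = 0.00587) from day 30 to 45 (adjusted p = 0.058 without day 30 replicate 3) and the difference was -1.03 ± 0.18 (SE, adjusted p = 0.0429).

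Hsp26, a small heat shock protein, had 22.9, 17.8 and 29.2 normalized counts at day 15, 166, 43.1 and 96.6 at day 30 and 28.7, 23.5 and 42.3 at day 45. The day 30 libraries differed almost 4-fold, with replicate 1 highest, and the lowest of them was only just above the highest of day 45. The difference was -3.41 ± 0.61 (SE, limma adjusted p = 0.0429), and -2.51 (adjusted p = 0.137) without day 30 replicate 1. Between days 45 and 30 no member of 22 heat shock and chaperone genes was called by limma (median -0.13, 2 at an unadjusted p under 0.05) or DESeq2, and edgeR called Hsp26 (adjusted p = 0.0482). Day 30 replicate 1 was also the highest library of these 6 for Hsp68 and Hsp27. The number called depends on single libraries. Of the 6 genes, 4, 5 and 6 were kept without day 45 replicates 1, 2 and 3, and 4 without each day 15 library. Without day 30 replicate 1, 8 genes were called, among them 4 of the 6. Without day 30 replicate 2 only Hsp26 and Cnx99A were called, and without day 30 replicate 3 none, where limma's adjusted p was 0.087 for Cnx99A and 0.129 for MtnA.

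**Figure D3:**
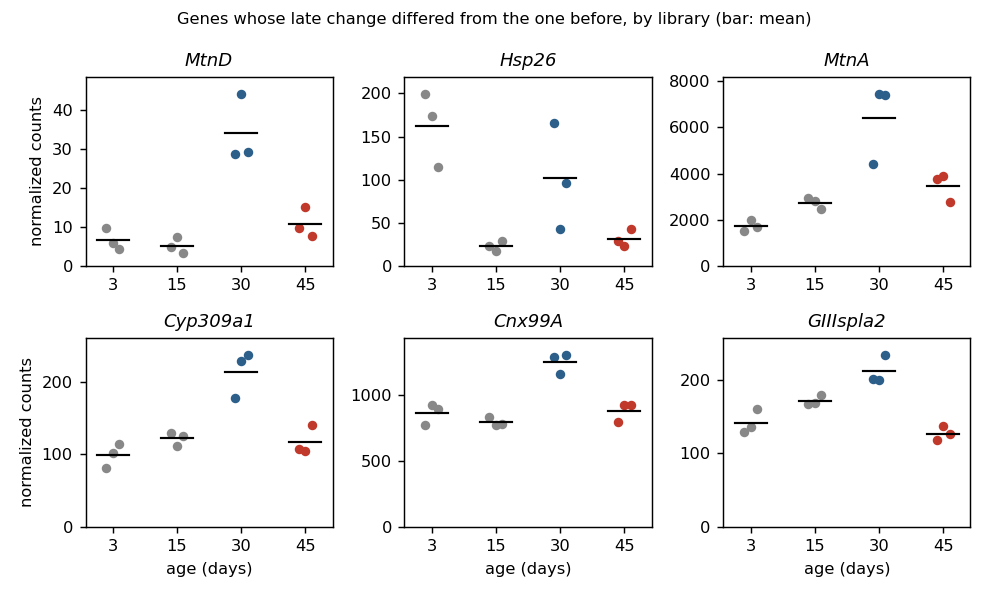
Normalized counts of the 6 genes whose change from day 30 to 45 differed from that of days 15 to 30, in each library at 3, 15, 30 and 45 days (points; bar, mean of 3). Day 30 (blue) is above day 15 and day 45 (red) in every gene, as for Cnx99A at 1156 to 1302 on day 30 and 797 to 924 on day 45.

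Eye genes were lower at day 45 in most members, but none of 31 phototransduction and photoreceptor genes passed the limma test. Their median log2 change was -0.33, 29 of 31 were below 0, and 9 lay below day 30 without overlap, against 6.87% of all genes. At an unadjusted p under 0.05 there were 17 of the 31, against 8.72% of all genes. edgeR called none, and DESeq2 called chp and Ggamma30A (adjusted p of 0.0228 and 0.0106). Members of this list come largely from 1 cell type, so they are not independent of each other.

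The largest change belonged to ninaE, the main rhodopsin Rh1 of the outer photoreceptors. It had 48928, 64878 and 94069 normalized counts in day 45 heads, against 107246, 96962 and 119690 in day 30 heads. The ages did not overlap, and day 45 replicate 3 lay close to day 30. For ninaE the log2 change was -0.69 ± 0.19 (SE, limma adjusted p = 0.169). Arr2, the main arrestin that shuts rhodopsin off, had 21183, 27291 and 41958 at day 45, against 37141, 37616 and 45492 at day 30, where replicate 3 reached into the day 30 range (limma adjusted p = 0.415). Pdh, a retinal dehydrogenase of pigment cells, had 1159, 1312 and 2951 at day 45, against 2501, 2145 and 2064 at day 30, so that replicate 3 was the highest of all 6.

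Further down the cascade, the phospholipase norpA had 4256, 4658 and 5236 normalized counts at day 45, against 5214, 5869 and 6597 at day 30, a log2 change of -0.32. The G protein subunit Galphaq and the kinase rdgA did not overlap, with changes of -0.29 and -0.30. The channels trp and trpl overlapped, with -0.18 and -0.33. Of the rhodopsins of the inner photoreceptors, Rh3 and Rh6 overlapped, with log2 changes of 0.00 and -0.13. Rh4 had 2824, 5456 and 6292 normalized counts at day 45, against 5247, 6219 and 6319 at day 30. Rh5 had 488, 1060 and 895 at day 45, against 836, 1014 and 1125 at day 30. Both overlapped between ages, and in both day 45 replicate 1 alone lay below the day 30 range.

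The day 45 libraries disagreed on the eye. Measured against the day 30 mean, the median gene of the list was at -0.46 in day 45 replicate 1, -0.26 in replicate 2 and -0.11 in replicate 3 on the log2 scale, with 28, 29 and 22 of 31 genes below that mean. The summed level was 142304, 179011 and 233185 normalized counts in day 45 replicates 1, 2 and 3, against 239853, 237662 and 286083 at day 30. Without day 45 replicate 3 the list's median was -0.40 and 11 of 31 genes were called lower, led by ninaE (-0.93, limma adjusted p = 0.00403), Pdh (-0.85, 0.000689), laza (-0.80, 0.000389) and Arr2 (-0.73, 0.00542). In that fit 61 genes were called lower in all. Without replicate 1 the median was -0.22 and none was called.

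**Figure D4:**
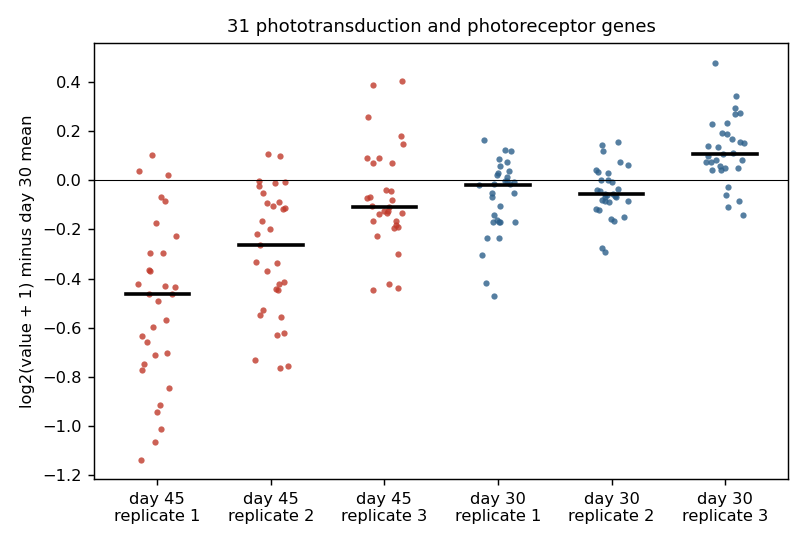
Each of 31 phototransduction and photoreceptor genes (points) in each day 45 library (red) and day 30 library (blue), as log2(normalized count + 1) minus the gene's day 30 mean, with the median as a bar. The medians are -0.46, -0.26 and -0.11 in day 45 replicates 1, 2 and 3, against -0.02, -0.06 and 0.11 in day 30 replicates 1, 2 and 3.

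None of 16 glial genes was called by limma, edgeR or DESeq2, and the median log2 change was 0.13. An unadjusted limma p under 0.05 was found for 6, against 8.72% of all genes. Without overlap, 6 lay above day 30, against 6.98% of all genes, among them repo, the glial transcription factor, with 310, 320 and 277 normalized counts at day 45, against 243, 269 and 257 at day 30 (limma adjusted p = 0.415). None of 37 neuronal and synaptic genes was called by any of the 3 tools (median -0.03, 5 at an unadjusted limma p under 0.05). The vesicle proteins cpx and nSyb had changes of -0.27 and -0.21 with day 45 below day 30 in every library, and ple, tyrosine hydroxylase of dopamine neurons, had 333, 256 and 302 at day 45, against 248, 197 and 177 at day 30 (log2 change 0.52 ± 0.13, SE, limma adjusted p = 0.131).

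In fat body, Lsp1beta, a storage protein, had 299, 371 and 372 normalized counts at day 45, against 530, 957 and 1315 at day 30. The ages did not overlap, and the day 30 libraries differed more than 2-fold (log2 change -1.34 ± 0.41, SE, limma adjusted p = 0.246). The sugar-responsive tobi had 108, 85.5 and 180 at day 45, against 143, 317 and 555 at day 30, with overlap (limma adjusted p = 0.206). None of 14 fat body genes was called by limma, edgeR or DESeq2 (4 at an unadjusted limma p under 0.05, against 8.72% of all genes). The lipid carrier apolpp had a log2 change of -0.11.

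The large housekeeping groups gave no call either, and most cytosolic ribosomal protein and respiratory chain genes were highest in the same day 45 library. None of 79 cytosolic ribosomal protein genes was called (median -0.06), and among the day 45 libraries 76 of the 79 were highest in replicate 3 and 69 lowest in replicate 1, against 39.3% and 33.1% of all genes. None of 65 respiratory chain genes was called (median -0.08), with 54 highest in replicate 3. limma, edgeR and DESeq2 called no member of these 2 groups, nor of 31 proteasome, 27 autophagy and lysosome, 31 glutathione S-transferase or 24 chromatin genes. Not every group was highest in replicate 3. Of the 24 chromatin genes 3 were highest and 14 lowest there, against 39.3% and 38% of all genes. Of 70 mitochondrial ribosomal protein genes 28 were highest in replicate 3 and 30 in replicate 2, against 39.3% and 28.2%. At an unadjusted limma p under 0.05 there were 0 ribosomal, 6 respiratory chain, 1 proteasome, 2 autophagy, 1 transferase and 0 chromatin genes. Of 28 stress and DNA damage genes limma called none (5 at that p). In the last group, Gadd45, a stress-induced gene, had 114.7, 95.5 and 104 normalized counts at day 45, against 72.6, 64.2 and 70.3 at day 30, without overlap (log2 change 0.59 ± 0.14, SE, limma adjusted p = 0.0848). Mmp1, a matrix metalloprotease, had 532, 475 and 340.3 at day 45, against 283, 301 and 303 at day 30 (0.58 ± 0.13 on the log2 scale, SE, limma adjusted p = 0.0666). On the recovered reads edgeR called both, with adjusted p of 0.0261 for Gadd45 and 0.0263 for Mmp1, while DESeq2 called Mmp1 (0.00534) and not Gadd45 (0.177).

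The study is about foxo. Insulin signalling holds the FOXO protein in the cytoplasm, so the level of foxo RNA does not measure its activity. foxo had 446, 484 and 492 normalized counts in day 45 heads, against 462, 481 and 488 in day 30 heads, with full overlap. Its log2 change was -0.01 ± 0.08 (SE, limma adjusted p = 0.984). None of 10 FOXO targets named in the literature was called by limma, edgeR or DESeq2 (0 at an unadjusted limma p under 0.05), the median change was 0.01 and each member's ages overlapped. Thor, the translation repressor 4E-BP, had 523, 491 and 528 at day 45, against 461, 457 and 568 at day 30 (log2 change 0.06). The others were srl (-0.11), Sesn (-0.07), Atg8a (-0.06), Lip4 (-0.02), FoxK (-0.02), bmm (0.05), Ilp6 (0.13), l(2)efl (0.14) and NLaz (0.18). None of 26 insulin and TOR pathway genes was called by these tools either (3 at an unadjusted limma p under 0.05). Those nearest were the insulin-binding ImpL2, with 283, 328 and 292 at day 45, against 426, 354 and 391 at day 30 (-0.37 ± 0.10 on the log2 scale, SE, limma adjusted p = 0.169), as well as the insulin-like peptide Ilp2, with 250.1, 272 and 251 at day 45, against 343, 287 and 329.5 at day 30 (-0.31 ± 0.11, SE, adjusted p = 0.367). Neither overlapped between ages.

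The late calls were set beside 2 other comparisons whose own groups hold none of these 6 libraries. The calls between days 15 and 3 came from the same model, which estimates the spread from all male libraries. They are therefore not independent of the late calls. Between days 15 and 3, 531 genes rose and 662 fell (5.95% and 7.42% of 8921). Of the 531, 16 rose again late and 2 fell late. Of the 662, none rose late and 2 fell. Of the 7728 that were not called early, 9 rose and 8 fell late. Genes that rose in both intervals include PGRP-SD, PGRP-SB1, Listericin, Arc1, Obp56a and Tsp42Ed. In the authors' deposited table of foxo mutant against wild-type females, both 3 days old, 12.8% of genes had an adjusted p under 0.05. Of the 37 late calls, 36 have an adjusted p in the authors' deposited table and 8 were called there. Mtk is listed there without a p-value. The table has 6.26% higher and 6.51% lower. Of 562 tested here that were higher in the mutant in the authors' deposited table, 3 rose and 2 fell late, and of 624 lower, 1 rose and 2 fell. Cnx99A and Cpr11B had log2 fold changes of -0.50 and -1.18 in the authors' deposited table, and Cpr49Ag and Def had 0.73 and 0.71. For Cnx99A, Cpr11B and Def the mutant differed from wild type in the direction of late life, and for Cpr49Ag in the opposite one. The rest of the 8 were split, with CG14419 (0.50) and CG4269 (0.60) in the direction of late life. CG16926 (0.68) and CG7695 (-0.71) went the opposite way.

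The spread between the 3 day 45 libraries was close to that at day 30 in the median gene and wide in a few genes. The SD of log2(normalized count + 1) had a median over genes of 0.142 at day 45, 0.136 at day 30, 0.123 at day 15 and 0.146 at day 3. Taking the genes that averaged 50 or more at the age in question, the SD was over 0.5 in 64 genes (1.00%) at day 45, 45 (0.704%) at day 30, 32 (0.503%) at day 15 and 55 (0.875%) at day 3. With 3 libraries per age the spread itself was not tested. Of the 64 genes at day 45, replicate 3 was the one farthest from the other 2 in 42. The median absolute log2 difference was 0.193 between replicates 1 and 3, 0.178 between 2 and 3 and 0.128 between 1 and 2. By this measure the day 45 libraries without replicate 3 agreed more closely than any pair at day 30, whose differences were 0.141 to 0.172. By chi-square per gene they did not: it was 3.03 between day 45 replicates 1 and 2, against 2.61 between day 30 replicates 2 and 3.

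Among genes with a day 45 mean of at least 50, 3 of the 10 with the largest SD of log2 values at day 45 were core members of the clock loop. The order was Cyp4g1, Achl, tim, vri, per, CG34134, Cpr72Ec, CG45045, Dro and Usp8. The clock gene tim (2L, 3493986 to 3508119) had 2247, 2976 and 359.8 normalized counts in day 45 heads, against 953, 2433 and 3221 in day 30 heads. Replicate 3 of day 45 and replicate 1 of day 30 were the low ones. per had 552, 665 and 102 at day 45, against 210.0, 601 and 675 at day 30, and vri had 1204, 1531 and 228 at day 45, against 602, 1122 and 1310 at day 30. The same 2 libraries were low in both. Clk, which peaks in the opposite phase to per and tim, had 144, 97.2 and 254 at day 45, against 206, 147 and 135 at day 30, and was highest in just these 2. None of 14 clock genes was called between the ages by limma, edgeR or DESeq2 (0 at an unadjusted limma p under 0.05), and the log2 changes of tim, per and vri were -0.54 ± 0.62, -0.39 ± 0.57 and -0.36 ± 0.55 (SE). The spread was also wide at other ages, as for tim with 348, 532 and 983 at day 15 and 1172, 2166 and 3687 at day 3. per shares its place with dyw on the other strand. The labels used here give no time of day of collection.

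Other genes split the same libraries. Achl had 23.3, 26.8 and 282 normalized counts in day 45 heads, against 254, 29.1 and 21.0 in day 30 heads. CG34134 had 23.3, 31.8 and 154 at day 45, against 137, 48.1 and 52.5 at day 30. Both were high in the 2 libraries where per and tim were low. Usp8, a ubiquitin protease, had 639, 804 and 207 at day 45, against 320.4, 868 and 1014 at day 30, and was low there. Cyp4g1, the P450 that makes cuticular hydrocarbons in oenocytes under the body wall, had 222, 148 and 4.34 at day 45, against 26.9, 42.1 and 102 at day 30. Within each age it was lowest in the library where per and tim were low, and the gap was far larger in day 45 replicate 3 than in day 30 replicate 1.

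**Figure D5:**
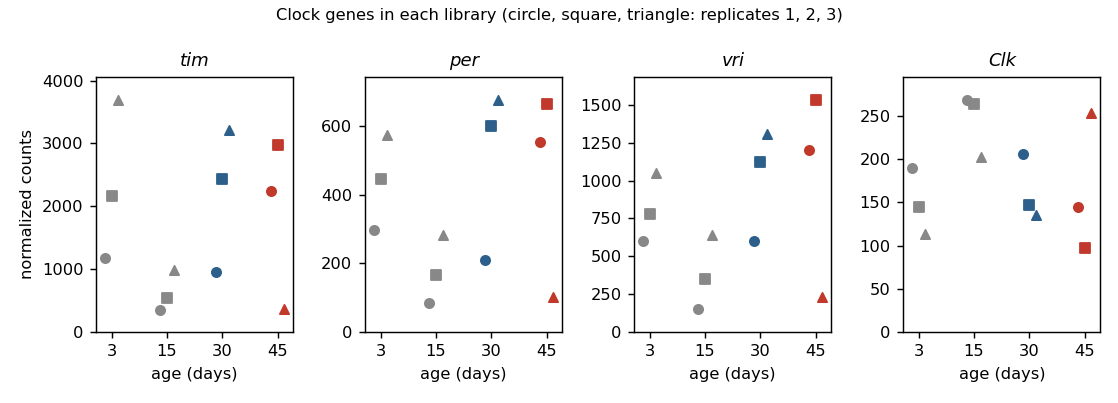
Normalized counts of tim, per, vri and Clk in each library (circles, squares and triangles for replicates 1, 2 and 3) at 3, 15, 30 and 45 days, with day 30 in blue and day 45 in red. At day 45 the triangle lies far below the other symbols for tim (359.8), per (102) and vri (228) and above them for Clk (254).

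When both libraries of low per, tim and vri were left out, a setting chosen after the data were seen, 45 genes rose and 78 fell, and 29 of the 37 calls remained. When the mean log2 level of per, tim and vri was put into the model as a term instead, also after the data were seen, 44 rose and 40 fell and all 37 remained. PGRP-SD, PGRP-SB1, Listericin and Def were called in both of these fits, with log2 changes of 1.35 and 1.30 for PGRP-SD and 2.17 and 2.23 for Def. Mtk was called with the clock term (1.80, limma adjusted p = 0.002) and not without both libraries (1.66, adjusted p = 0.061). Of the 31 eye genes, 14 were called lower without both libraries and 6 with the clock term.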

How the data were processed

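RNA was taken from whole heads with Trizol, 1 ug went into a polyadenylated RNA library (NEBNext Ultra) per the labels' protocols, and the submitters' processing notes name STAR, HTSeq, DESeq and the build dm6, without tool versions. The deposited male table holds the signal per gene, a count that the authors divided by a library size factor. The authors' deposited female table holds a mean signal, log2 fold changes, a test score and p-values for foxo mutant against wild-type females.

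Genes with at least 10 in at least 3 male libraries were kept, log2(value + 1) was fitted with limma 3.58.1 (R 4.3.3) over the 4 male ages without a block, and p was adjusted by Benjamini and Hochberg. A gene was called at an adjusted p under 0.05, and fold changes on this scale understate low genes. Of the deposited values, 100% were whole multiples of 1 read within 0.001 reads. edgeR 4.0.16 called 56 genes and DESeq2 1.42.0 called 64 of 8919 on those reads, though for 3 of the libraries, where 1 read is worth almost exactly 1, the files alone cannot show this. Names came from an Ensembl annotation on dm6 (10701 named, 183 without a symbol); of 10480 female genes 8339 matched by symbol, 2031 by synonym and 110 not. Figures used matplotlib 3.10.9.

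The genes named are foxo, the 10 higher and 10 lower calls of largest change with a given name, a mean of at least 50 and no overlap, 3 each way under any name, FOXO targets, up to 3 members of each list, up to 6 each way for the difference between intervals, and the 10 genes most variable at day 45; others, such as Cad89D, ple and further list members, were chosen after their values were seen. The comparison, its members and its lists were chosen with earlier results of these data known. On simulated counts for days 45 and 30 (8913 genes tested), 62.7% of 1.5-fold, 82.1% of 2-fold and 100% of 4-fold changes were recovered, and 3 of 166 calls were false. The simulation drew every gene independently, with no outlying library and no genes that vary together. These shares therefore need not hold for the real libraries. Alternatives were other filters, pseudocounts, scalings, designs, count tests and fits without single libraries.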

Additional observations from a re-analysis of the deposited data

Results flagged for a closer look

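For 6 genes the change from day 30 to 45 differed from the change from day 15 to 30 by limma's test of the difference, on the log2 scale. The difference was -4.13 for MtnD, -3.41 for Hsp26, -2.05 for MtnA, -1.66 for Cyp309a1, -1.15 for Cnx99A and -1.03 for GIIIspla2. Both intervals share the day 30 libraries, and none of the 6 was called without day 30 replicate 3.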

How the results depend on the processing

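All 37 calls kept their sign in every setting that tested them, but the number depends on the setting. The 25 higher genes became 42 with edgeR, 44 with DESeq2, 82 with library weights, 45 without both libraries of low per, tim and vri and 44 with a clock term, and 3 to 38 when single libraries were left out. The 12 lower genes became 7 with a minimum of 50, 7 with only the ages compared, 78 with weights, 20 with DESeq2, 78 without both libraries and 40 with the clock term, and 0 to 61 when single libraries were left out. The 11 calls summed over the gene lists became 17 with the replicate block, 45 with weights, 6 with robust empirical Bayes, 19 with edgeR and with DESeq2, 36 without both libraries and 26 with the clock term, and 1 to 31 without single libraries. The 8 genes called late and in the mutant table became 4 with a minimum of 50, 50 with weights, 14 with edgeR, 20 with DESeq2, 41 without both libraries and 24 with the clock term, and 0 to 32 without single libraries. Genes with a higher late than middle change numbered 0, and 1 with only the ages compared, 2 with weights, 27 without both libraries, 1 with the clock term and 0 to 1 without single libraries. The 6 with a lower one became 12 with weights and 44 without both libraries, and 0 to 8 without single libraries. The median log2 difference between libraries of one age was 0.166 at day 45 (0.128 to 0.193 without single libraries) and 0.155 at day 30 (0.138 with a pseudocount of 10, 0.129 with a minimum of 50). Setting aside the fits with fewer samples or genes, the cause was not tested.

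Same-numbered libraries of days 45 and 30 had correlations of deviations over all genes of -0.05, 0.03 and -0.05. The mean log2 level of per, tim and vri rose with the replicate number at 3 ages. In replicates 1, 2 and 3 it was 9.22, 9.83 and 10.3 at day 3 and 7.37, 8.30 and 9.14 at day 15. At day 30 it was 8.95, 10.2 and 10.5, and at day 45 it was 10.2, 10.5 and 7.67. Whether a number stands for a shared batch was not tested. With the replicate block 30 genes were higher and 13 lower, and 36 of the 37 calls remained. The clock settings were chosen after the data were seen. Sequence features were not run.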
